A study of Mus musculus with 8 samples.

Results

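The BCL-2 family decides whether a cell keeps its mitochondria intact or enters apoptosis, and its transcripts were followed here in activated mouse CD8 T cells. The genes chosen were Bcl2, Bcl2l1, Mcl1, Bcl2l11, Bbc3, Pmaip1, Bax, Bak1, Bid and Bik, 10 in all. A probe set, the group of array oligonucleotides that reports 1 transcript, was taken where the platform annotation gave exactly 1 of these symbols. This gave 25 of the 22690 probe sets of the array, for 9 of the 10 genes. Bax was not analysed here.

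RNA came from cytotoxic T cells of OT-1 mice, in which a transgenic receptor makes CD8 T cells recognise an ovalbumin peptide. The cells, activated beforehand, spent 4 h at 30 T cells per target with cells of ID8, a mouse ovarian cancer line, that carried the peptide. These targets were PD-L1-overexpressed or PD-L1-depleted, PD-L1 being the protein that engages PD-1 on T cells and restrains them. Both kinds of target met T cells of the same 4 mice (A, B, C and D), which were then recovered with magnets, so each group held 4 arrays and every mouse had 1 array per target. The labels name no age for the mice. T cells without targets, or with unaltered ID8 cells, were not analysed here, so every value is from T cells that had met peptide-bearing targets. One receptor, 1 tumour line and 1 time limit what the groups stand for.

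Proteins of the family act in 3 layers. BCL-2, BCL-XL (from Bcl2l1) and MCL-1 hold the effectors BAX and BAK in check, while BAX and BAK open the outer mitochondrial membrane once released. The BH3-only proteins BIM (from Bcl2l11), PUMA (from Bbc3), NOXA (from Pmaip1), BID and BIK sense stress, loss of cytokine or death receptor signals and bind the protective members or the effectors. In T cells BIM is known for the removal of activated cells when a response ends, NOXA for binding MCL-1, and BCL-XL for its induction by costimulation and cytokines.

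Transcription factors of the FOXO class, which are active when growth factor and cytokine signalling is low, are known activators of Bcl2l11 and Bbc3, and STAT5 is a known activator of Bcl2l1. The 250 bases upstream of annotated starts were therefore read for their core sites, from RefSeq on GRCm38.p6. In the family 12 such windows were read, for 7 of the 9 genes. Family windows on 1 chromosome were left out of this reading, though the counts over all windows kept it. No window of Pmaip1 or Bik was read, so the family counts do not cover these genes. The FOXO core, spelled GTAAACA and read on both strands, was found in 2 of the 12 windows and in 1040 of all 32851 windows of this length (3.17%). The STAT core, spelled TTCNNNGAA, was found in 0 of the 12 and in 2306 of all windows (7.02%). The 2 windows with a FOXO core are shown because Bcl2l11 passed the test between mice described further on and Bbc3 did not. The core is in capitals, and the strand is that of the gene.
Bcl2l11, chr2:128125788-128126037, plus strand, core 227 to 221 bases before the start: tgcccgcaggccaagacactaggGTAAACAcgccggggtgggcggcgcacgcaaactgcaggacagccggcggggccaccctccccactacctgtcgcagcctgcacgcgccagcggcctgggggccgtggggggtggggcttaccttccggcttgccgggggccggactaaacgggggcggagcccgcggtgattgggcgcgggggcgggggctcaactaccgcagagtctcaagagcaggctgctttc
Bbc3, chr7:16310011-16310260, plus strand, core on the opposite strand 167 to 161 bases before the start: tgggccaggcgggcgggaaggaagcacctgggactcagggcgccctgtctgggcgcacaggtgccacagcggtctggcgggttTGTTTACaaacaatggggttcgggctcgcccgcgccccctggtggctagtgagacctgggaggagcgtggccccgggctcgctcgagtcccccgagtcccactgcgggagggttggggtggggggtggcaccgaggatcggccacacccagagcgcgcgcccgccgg
The other annotated starts of these genes, 1 more for Bcl2l11 and 2 more for Bbc3, had no such core in their windows. A match of letters is a description of the sequence, and no binding was measured.

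All values below are the deposited log2 expression values, so a difference of 1 is a doubling, and differences between targets are PD-L1-overexpressing minus PD-L1-depleted. Values of different probe sets are not comparable with each other as levels. The 8 arrays correlated with each other at 0.994 to 0.998. Cd8a lay between 12.48 and 12.79 and Cd3e between 10.96 and 11.23, so the defining markers of CD8 T cells were high on every array. RNA of other cells was present too. The mean of 16 tumour or mesothelial markers was 7.56, 7.14, 7.93 and 7.85 in mice A to D with PD-L1-overexpressing targets and 7.04, 7.89, 7.49 and 7.39 with PD-L1-depleted targets. The PD-L1-overexpressing arrays were thus the higher ones in mice A, C and D, by 0.51, 0.45 and 0.46, and the lower one in mouse B, by -0.75. The marker Upk3b, at 9.28, 7.51, 9.95 and 9.78 against 7.61, 9.79, 8.07 and 7.96, ran the same way. Krt19 lay between 8.11 and 8.85 and did so too, by smaller steps of 0.25, -0.54, 0.11 and 0.061 in mice A to D. Because mouse B stood apart in this respect, the comparison of targets is also given without it. In such bulk RNA, fewer cells of a type and less RNA per cell cannot be told apart.

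The first question was whether PD-L1 on the target changed transcripts of the family in the T cells within 4 h. No member passed. With the mouse as a block, limma called 0 of 25 probe sets of the family and 0 of all 22626 tested (0%), with adjusted p = 0.993 or more for every member. An unadjusted p under 0.05 was reached by 1 member and by 854 probe sets in all (3.77%). For 25 of 25 members, and for 22477 probe sets in all (99.3%), the 95% interval of the difference lay inside 1.5-fold in either direction. The mean was higher with PD-L1-overexpressing targets for 9 members and for 10375 probe sets in all (45.9%). The median size of the difference was 0.029 for the members and 0.038 for all probe sets. Without mouse B, limma called 360 probe sets (1.59%) and still 0 of 25 members, whose differences then ran from -0.28 in Bik 1449836_x_at to 0.19 in Bcl2l11 1435449_at.

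Among the protective genes, Bcl2 read 11.12, 11.08, 10.87 and 11.11 in mice A to D with PD-L1-overexpressing targets and 11.13, 11.00, 10.87 and 11.08 with PD-L1-depleted targets. The groups overlapped throughout, and the mean difference was 0.024 (SE 0.030, n = 4 mice). Bcl2l1 is read by 4 probe sets. That with the highest mean, 1420888_at, gave 11.11, 10.54, 10.72 and 10.50 with PD-L1-overexpressing and 10.92, 10.66, 10.82 and 10.59 with PD-L1-depleted targets. With PD-L1-overexpressing targets mouse A was higher and the other three lower, for a mean difference of -0.032 (SE 0.051). The same split of mouse A against B and C was seen in 1420887_a_at (mean difference -0.055, SE 0.067) and 1426191_a_at (-0.033, SE 0.067). These probe sets report 1 gene and are not separate evidence. The dim 1426050_at, at 4.90 to 5.44, differed by -0.016 (SE 0.075).

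Mcl1, whose short-lived product T cells depend on, is read by 6 probe sets. The difference lay between -0.025 and 0.026 in all of them, with SE from 0.021 to 0.038. Its probe set 1448503_at read 12.69, 12.86, 12.81 and 12.70 with PD-L1-overexpressing targets and 12.71, 12.89, 12.82 and 12.72 with PD-L1-depleted targets. It was the 1 member probe set with the same direction in 4 of 4 mice, lower with PD-L1-overexpressing targets by a mean of -0.018 (SE 0.021), and 2700 probe sets in all (11.9%) kept 1 direction. The interval of that difference ran from -0.065 to 0.028.

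Among the BH3-only genes, Bcl2l11 is read by 5 probe sets. That with the highest mean, 1456005_a_at, gave 9.41, 9.87, 9.68 and 9.83 with PD-L1-overexpressing targets and 9.44, 9.90, 9.73 and 9.80 with PD-L1-depleted targets. The mice differed between targets by -0.045 to 0.025, and the mean difference was -0.018 (SE 0.035). The other 4 differed by -0.027 to 0.104, the highest being 1435449_at (SE 0.084), for which 3 of 4 mice were higher with PD-L1-overexpressing targets. That difference was 0.016 without mouse C, which alone differed by 0.37.

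Bbc3 and Pmaip1, both also known as targets of p53, showed no common direction. Bbc3 read 10.26, 10.19, 10.10 and 10.22 with PD-L1-overexpressing targets against 10.14, 10.41, 10.12 and 10.17, a mean difference of -0.021 (SE 0.053). Pmaip1 read 10.79, 11.40, 11.15 and 11.33 against 10.63, 11.45, 11.09 and 11.36, a mean difference of 0.033 (SE 0.038). For each, 2 of 4 mice were higher with PD-L1-overexpressing targets. Bid, which caspase 8 cleaves downstream of death receptors, differed by 0.026 (SE 0.053) in 1417045_at and by -0.093 (SE 0.069) in 1448560_at.

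Bik, which encodes a BH3-only protein of the endoplasmic reticulum, had 3 probe sets that did not share a direction. The difference was 0.15 (SE 0.084) in the dim 1420362_a_at, whose mean of 5.85 lay below the 40th percentile of all probe sets. In 1420363_at and 1449836_x_at, with means above that percentile, the difference was -0.12 (SE 0.063) and -0.16 (SE 0.088). In 1420362_a_at it rested on mouse B, which differed by 0.43, and was 0.050 without that mouse. In 1449836_x_at the readings were 7.22, 7.34, 7.04 and 7.09 with PD-L1-overexpressing targets and 7.52, 7.14, 7.32 and 7.34 with PD-L1-depleted targets. Mice A, C and D were lower with PD-L1-overexpressing targets, by -0.29, -0.28 and -0.25, and mouse B higher, by 0.20. Without mouse B the difference was -0.28 and did not pass (limma adjusted p = 0.0549). The tumour marker mean moved in the opposite sense in each mouse, as given above. Means of 2 other marker lists moved in the same sense as Bik in mice A to D. These were 8 macrophage and dendritic cell markers (-0.15, 0.053, -0.069 and -0.17) and 9 B cell markers (-0.075, 0.058, -0.052 and -0.11). The mean of 3 CD4 T cell markers differed by -0.23, -0.0022, -0.17 and -0.16. That of the CD8 T cell markers did not follow Bik. The part of any of these in the Bik values was not tested.

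The effector gene Bak1 had the largest difference between targets with all 4 mice, in its dim probe set 1425716_s_at. It read 6.59, 6.38, 6.64 and 6.55 with PD-L1-overexpressing targets and 6.67, 6.89, 6.98 and 6.54 with PD-L1-depleted targets, so 3 of 4 mice were lower and mouse D higher, by 0.014. The mean difference of -0.23 (SE 0.091) had a 95% interval from -0.44 to -0.024 and an unadjusted limma p of 0.033, which did not survive adjustment (adjusted p = 0.993). Without mouse B it was -0.14, smaller than those of Bik 1449836_x_at (-0.28), Bcl2l11 1435449_at (0.19) and Bik 1420363_at (-0.18), and with array weights it was -0.16 against -0.21 in Bik 1449836_x_at. Without mouse C it was -0.19 with an unadjusted limma p of 0.13. The brighter Bak1 probe set, 1418991_at, differed by -0.029 (SE 0.050).

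**Figure D1:**
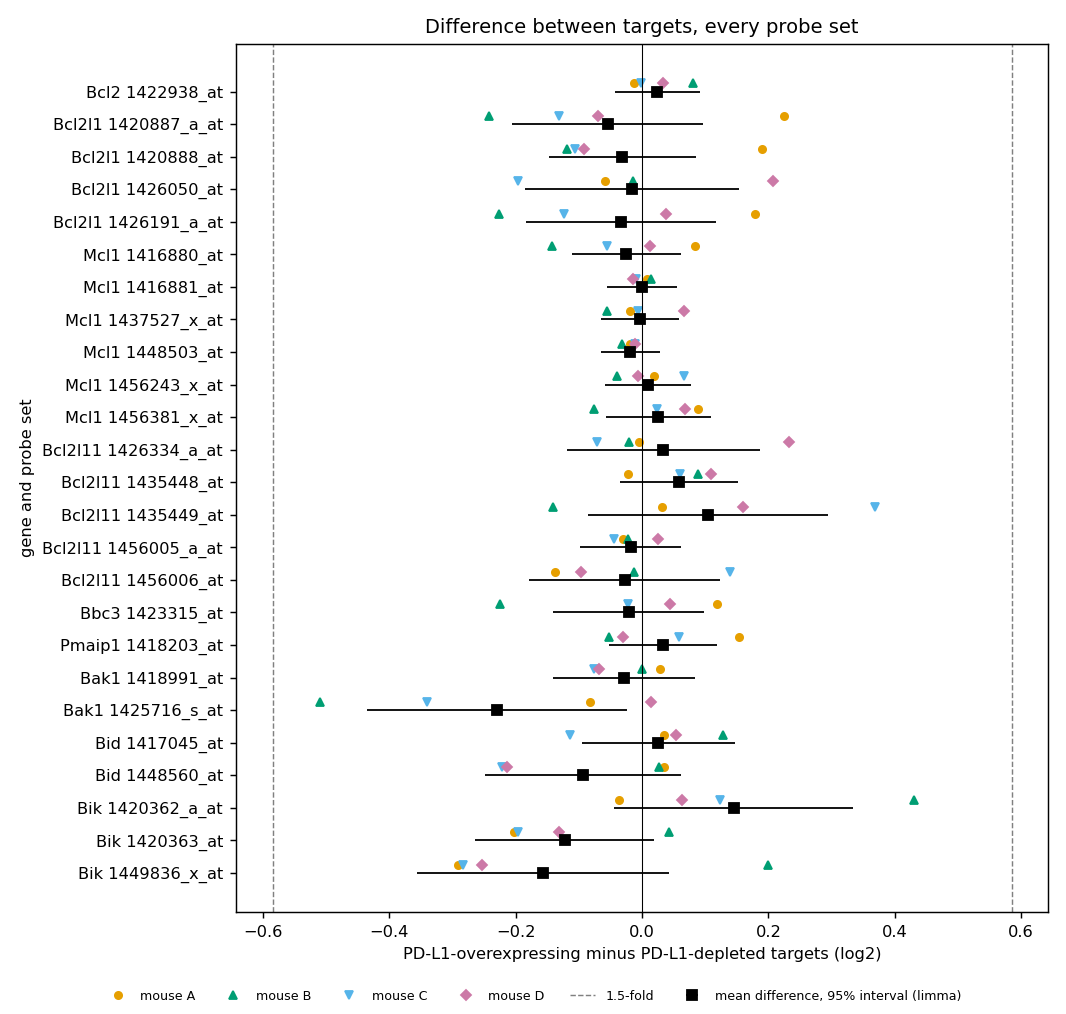
Difference between targets on the log2 scale (x axis, PD-L1-overexpressing minus PD-L1-depleted) for each of the 25 probe sets (y axis). Coloured points are the 4 mice, black squares the limma mean with its 95% interval, and dashed lines mark 1.5-fold; every interval lies between the dashed lines, and that of Bak1 1425716_s_at is the one that leaves out 0.

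The second question was how the mice differed, since the animal is the other labelled variable. By limma's moderated F test over the 4 mice, 12 of 25 probe sets passed, against 2917 of all 22626 (12.9%). They belonged to Bcl2, Bcl2l1, Mcl1, Bcl2l11, Pmaip1 and Bid. No probe set of Bbc3, Bak1 or Bik passed. The share over all probe sets depends on signal. With the filter at the 40th percentile, 15 of 22 members passed, against 3192 of 13576 probe sets in all (23.5%). The 4 mice spanned a median of 0.26 in the members and 0.19 in all probe sets. A span over 0.5 with a passing test was seen in 4 members and in 774 probe sets (3.42%). The test sets animals against the spread between the co-cultures of 1 animal, with 2 arrays each, so an animal and the preparation of its cells cannot be told apart.

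Mouse A carried much of this. Against the mean of the other three, 4 member probe sets were higher in it (1883 of all, 8.32%) and 6 were lower (1440 of all, 6.36%). In mouse B 4 were higher (598 of all, 2.64%) and 0 lower (220 of all, 0.972%). In mouse C 0 were higher (252 of all, 1.11%) and 2 lower (458 of all, 2.02%), and in mouse D 1 was higher (414 of all, 1.83%) and 2 lower (338 of all, 1.49%). Both arrays of mouse A lay above the other 6 in 5 member probe sets (3289 of all, 14.5%) and below them in 5 (2213 of all, 9.78%). For mouse B this held in 5 above (1317 of all, 5.82%) and 0 below (2134 of all, 9.43%), for mouse C in 0 above (1395 of all, 6.17%) and 4 below (1497 of all, 6.62%), and for mouse D in 0 above (1347 of all, 5.95%) and 7 below (1027 of all, 4.54%). Without mouse A only Pmaip1 still passed the F test, among 500 probe sets in all (2.21%), while without mouse B 15 members passed, among 5396 (23.8%). With no trend of variance on expression, Pmaip1 and the 3 probe sets of Bcl2l11 still passed, among 985 (4.35%), and those of Bcl2, Bcl2l1, Mcl1 and Bid did not (limma adjusted p = 0.0782 to 0.168).

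**Figure D2:**
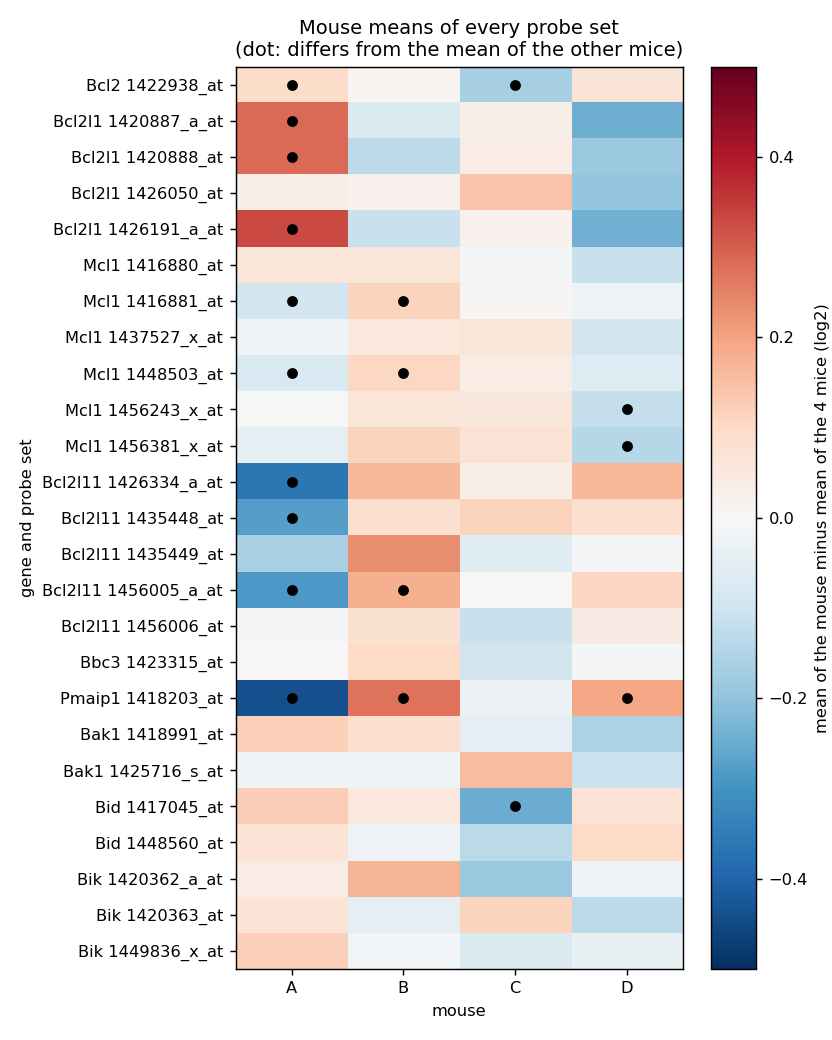
Mean of each mouse (x axis) minus the mean over the 4 mice, as a colour on the log2 scale, for the 25 probe sets (y axis); red is higher, blue lower, and a dot marks a limma adjusted p under 0.05 against the other mice. Mouse A is red with a dot in 3 of 4 Bcl2l1 probe sets, and blue with a dot in 3 of 5 Bcl2l11 probe sets and in Pmaip1.

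The widest span in the family was that of Pmaip1. Its readings in mouse A, 10.79 and 10.63, lay below the other 6 arrays, which ran from 11.09 to 11.45. The mouse means spanned 0.71, or 1.64-fold (limma adjusted p = 0.000138). Mouse A was lower than the others by -0.59 (SE 0.044), or 1.5-fold (adjusted p = 3.72e-05). Mouse B was higher by 0.36 (SE 0.044, 1.29-fold, adjusted p = 0.0025) and mouse D by 0.26 (SE 0.044, 1.20-fold, adjusted p = 0.0142). Without mouse A the remaining mice spanned 0.30 and still passed (adjusted p = 0.0269), but neither mouse B (adjusted p = 0.0533) nor mouse D (adjusted p = 0.614) then stood apart.

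Bcl2l11 was likewise lowest in mouse A. In 1456005_a_at mouse A read 9.41 and 9.44, below all other arrays, which ran from 9.68 to 9.90. Mouse A was lower by -0.38 (SE 0.041), or 1.30-fold (limma adjusted p = 0.000344), and mouse B higher by 0.24 (SE 0.041, adjusted p = 0.0147). In 1435448_at mouse A read 8.91 and 8.93 and the other 6 arrays 9.23 to 9.34. Mouse A was lower there by -0.37 (SE 0.048), or 1.29-fold (adjusted p = 0.00104). In 1426334_a_at mouse A read 6.92 on both arrays and the others 7.27 to 7.56, a difference of -0.48 (SE 0.078), or 1.39-fold (adjusted p = 0.00357). These 3 probe sets agreed in placing mouse A apart, and 1435449_at and 1456006_at did not pass (adjusted p = 0.166 and 0.465). Once mouse A was left out none of the 3 differed between the mice that remained (limma adjusted p = 0.242, 0.917 and 0.623), nor did mouse B then stand apart in 1456005_a_at (0.21).

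Some genes on the list of B cell markers differed between mice as well. The mean of 9 such markers was 7.77, 8.45, 7.93 and 8.23 in mice A to D with PD-L1-overexpressing and 7.85, 8.39, 7.98 and 8.34 with PD-L1-depleted targets, lowest in mouse A and highest in mouse B. Single markers did not share that order. Of the 9 genes 4 passed the F test, and they are named here after their values were seen. These 4 were also the only ones of the 9 with a mean above the 40th percentile of all probe sets. H2-Aa, with a span of 3.40, H2-Ab1 (0.83) and Ighm (0.83) were lowest in mouse A, whereas Cd74 (0.72) was lowest in mouse C, with mouse A 0.026 above the others. Among the 5 that did not pass, all with means below that percentile, Blk and Ms4a1 were lowest in mouse A, Cd79b in mouse C, and Cd79a and Pax5 in mouse B. Which cells this RNA came from was not tested, nor was its part in the values of Pmaip1 and Bcl2l11. Of 7 CD8 T cell markers, all above the 40th percentile, 5 passed, of which 4 were lower in mouse A and 1 higher. The mean of the 7 stayed between 12.25 and 12.37. With 1 probe set per gene, 1807 of 12393 genes (14.6%) passed the F test, and with the filter added 2347 of 8003 (29.3%). Of the 12393 genes, 896 (7.23%) were lower in mouse A and 1165 (9.4%) higher. Tumour markers had their lowest mean over both arrays in mouse A too, at 7.30 against 7.51, 7.71 and 7.62 in B, C and D.

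The protective Bcl2l1 ran the other way in 3 of its 4 probe sets, highest in mouse A. The fourth, 1426050_at, was highest in mouse C (5.34 against 5.23 in mouse A) and did not pass (limma adjusted p = 0.196). In 1420888_at mouse A read 11.11 and 10.92, above the other 6 arrays at 10.50 to 10.82, and was higher by 0.38 (SE 0.059), or 1.30-fold (limma adjusted p = 0.00285). In 1426191_a_at mouse A read 9.06 and 8.88 and the others 8.38 to 8.72, a difference of 0.44 (SE 0.077), or 1.36-fold (adjusted p = 0.00524). In 1420887_a_at it read 10.06 and 9.83 against 9.38 to 9.75, a difference of 0.38 (SE 0.078), or 1.30-fold (adjusted p = 0.0113). Mouse D was lowest in all 3 but did not pass against the others (adjusted p = 0.0606, 0.0603 and 0.0633 for 1420887_a_at, 1420888_at and 1426191_a_at). Without mouse A the F test was lost in each (adjusted p = 0.135, 0.0834 and 0.273), and without mouse D in 1420887_a_at (0.142) and 1426191_a_at (0.0707). The difference of mouse A in 1420887_a_at also missed the threshold without mouse D (0.0848).

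**Figure D3:**
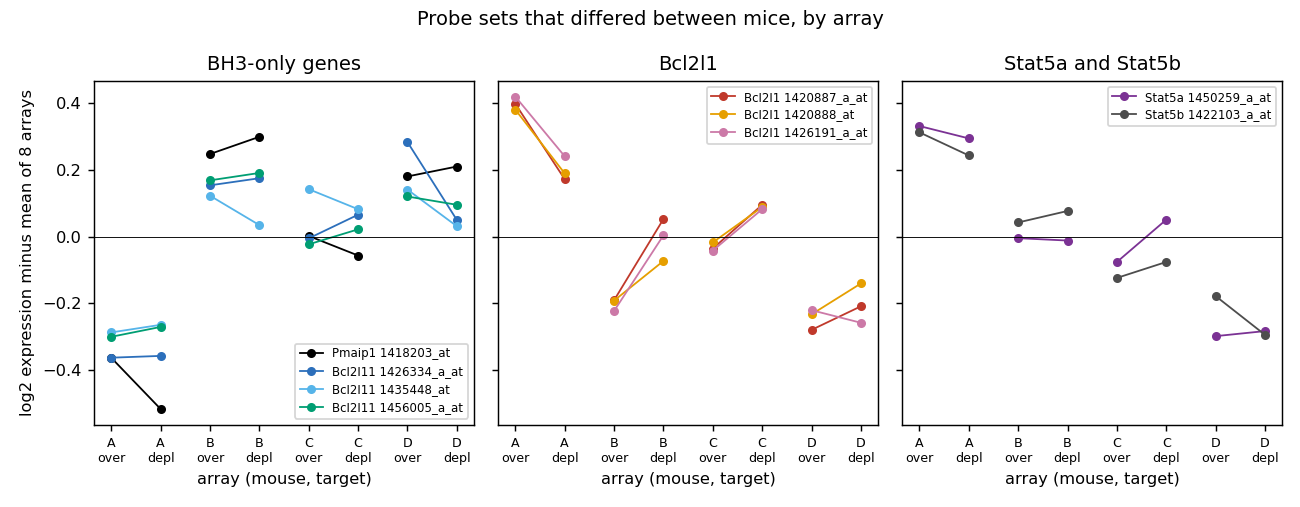
Expression on each array minus the mean of the 8 arrays (y axis, log2), with arrays ordered by mouse and target (x axis; over, PD-L1-overexpressing; depl, PD-L1-depleted) and lines joining the arrays of 1 mouse. Pmaip1 and the 3 Bcl2l11 probe sets that passed are lowest in mouse A, and the 3 Bcl2l1 probe sets that passed, Stat5a and Stat5b are highest there.

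Bcl2 and Mcl1 differed between mice by little. Bcl2 was lowest in mouse C, at 10.87 on both arrays against 11.00 to 11.13 on the other 6. The difference of mouse C was -0.22 (SE 0.034), or 1.16-fold (limma adjusted p = 0.0104), and mouse A was higher by 0.12 (SE 0.034, adjusted p = 0.0428). Without mouse C the F test of Bcl2 was lost (adjusted p = 0.416), as it was without mouse A (0.0715). The difference of mouse A missed the threshold without mouse C (0.426) or D (0.052).

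In Mcl1, 3 of 6 probe sets passed the F test, with spans of 0.21, 0.18 and 0.25. Of these, 1416881_at and 1448503_at were lowest in mouse A, by -0.12 (SE 0.028, limma adjusted p = 0.0181) and -0.10 (SE 0.024, adjusted p = 0.0201), and highest in mouse B, by 0.15 (adjusted p = 0.0212) and 0.14 (adjusted p = 0.0158). In 1456243_x_at and 1456381_x_at mouse D was lowest, by -0.16 and -0.19 (adjusted p = 0.0458 and 0.0491). The Mcl1 probe sets thus disagreed on which mouse was lowest. Without mouse A none of the 3 passed (adjusted p = 0.182, 0.0743 and 0.0861 for 1416881_at, 1448503_at and 1456381_x_at). Without mouse B 1416881_at was lost too (0.112), and without mouse C or D 1456381_x_at (0.0634 and 0.237). Each of these 6 differences of a single mouse missed the threshold when 1 or more of the other mice was left out.

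Bid was lowest in mouse C, as Bcl2 was. In 1417045_at mouse C read 8.13 and 8.25 and the other 6 arrays 8.43 to 8.58. The difference was -0.33 (SE 0.062), or 1.26-fold (limma adjusted p = 0.0246). Its call between mice (adjusted p = 0.0326) was lost without mouse A (0.144), C (0.743) or D (0.0622), and the difference of mouse C without A (0.099) or D (0.0561). The second Bid probe set, 1448560_at, was also lowest in mouse C but did not pass (adjusted p = 0.314).

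The remaining genes gave no call between mice. Bak1 1418991_at went from 8.27 and 8.24 in mouse A through 8.22 on both arrays in B and 8.06 and 8.13 in C to 7.95 and 8.01 in D, so the mice did not overlap, and it narrowly missed the threshold (limma adjusted p = 0.0761). It passed without mouse B (adjusted p = 0.0259). Bbc3 spanned 0.19 between mice (adjusted p = 0.338), and in mouse A it read 10.26 and 10.14, within the range of the other arrays. This is unlike Bcl2l11 and Pmaip1, but the difference between these genes was not tested. The 3 Bik probe sets spanned 0.19 to 0.35, with adjusted p from 0.232 to 0.622.

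**Figure D4:**
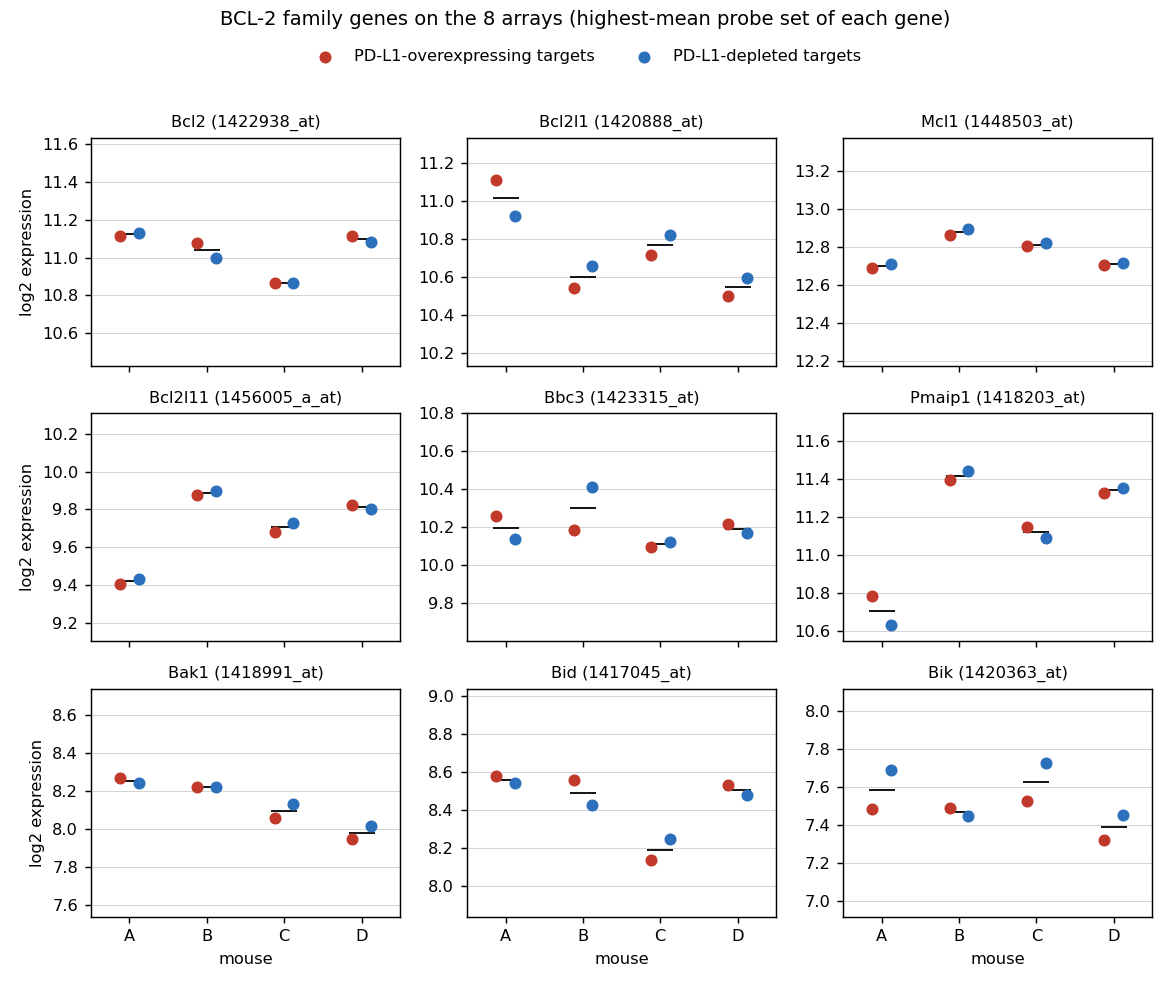
Log2 expression (y axis) by mouse (x axis) for the probe set with the highest mean of each of the 9 genes, with red points for PD-L1-overexpressing and blue points for PD-L1-depleted targets and a bar at the mean of each mouse. Every panel spans 1.2 log2 units. The points of a mouse lie furthest apart in Bbc3, where mouse B differs by -0.23 between targets and the mouse means span 0.19. In Pmaip1 and Bcl2l11 both points of mouse A lie below all others.

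The genes around the family were read from 3 lists, with 1 probe set per gene, where 1807 of 12393 genes (14.6%) passed the F test and 0 passed between targets. With the filter at the 40th percentile, 2347 of 8003 genes (29.3%) passed the F test. Above that percentile lay 7 of the 10 genes read from the first list, 15 of 15 from the second and 23 of 23 from the third. The same direction between targets in 4 of 4 mice was seen in 2700 of 22626 probe sets (11.9%). Of 16 further BCL-2 family genes 10 were on the array with a single symbol. Of these 10, 5 were higher and 5 lower with PD-L1-overexpressing targets, and 0 passed. Bcl2l14 was lower in 4 of 4 mice, by -0.15 (SE 0.061). The dim Bcl2l10, whose mean of 5.50 lay below the 40th percentile, differed by -0.18 (SE 0.091). Between mice 1 passed, Bnip3, a mitochondrial protein gene induced by hypoxia, which was lower in mouse A by -0.10 (SE 0.024, limma adjusted p = 0.0179). The BH3-only genes Bmf and Bad did not pass between mice (adjusted p = 0.149 and 0.252), nor did Bcl2l10 (0.302). Bmf was dim too, with a mean of 6.04 below the 40th percentile.

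Downstream of BAX and BAK, 15 of 17 genes of the mitochondrial machinery could be read. Between targets 11 were higher and 4 lower with PD-L1-overexpressing targets and 0 passed, with a median of 0.006. Aifm1, whose product leaves mitochondria during cell death, was higher in 4 of 4 mice by a mean of 0.074 (SE 0.042), though by only 0.00036 in mouse B. The channel gene Vdac3 was higher in 3 of 4 by 0.057 (SE 0.032). Between mice 3 of 15 passed. Birc2, which encodes the inhibitor of apoptosis cIAP1, was higher in mouse B by 0.35 (SE 0.045, limma adjusted p = 0.00346) and lower in mouse D by -0.28 (SE 0.045, adjusted p = 0.0109). Birc5, which encodes survivin, and Vdac1 were lower in mouse A, by -0.18 (SE 0.044, adjusted p = 0.0219) and -0.14 (SE 0.028, adjusted p = 0.0101). Birc3 missed the F test (adjusted p = 0.0851).

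Among genes that control the transcription or turnover of the family, 23 of 25 could be read and 10 passed between mice. In mouse A 5 were higher (1165 of 12393 genes, 9.4%) and 0 lower (896 genes, 7.23%). Between targets 9 were higher and 14 lower with PD-L1-overexpressing targets and 0 passed. Ywhaz, which encodes a 14-3-3 protein that holds phosphorylated BAD, was lower in 4 of 4 mice by -0.046 (SE 0.022), and Myb differed by -0.033 (SE 0.033). Stat5a read 10.57, 10.24, 10.17 and 9.95 in mice A to D with PD-L1-overexpressing targets and 10.54, 10.23, 10.29 and 9.96 with PD-L1-depleted targets. It was higher in mouse A by 0.42 (SE 0.043, limma adjusted p = 0.000272) and lower in mouse D by -0.39 (SE 0.043, adjusted p = 0.0018). Stat5b read 9.92, 9.65, 9.48 and 9.43 against 9.85, 9.68, 9.53 and 9.31, with mouse A higher by 0.37 (SE 0.048, adjusted p = 0.00106). Both were highest in mouse A and lowest in mouse D, as were the 3 Bcl2l1 probe sets that passed. The part of Stat5a and Stat5b in the Bcl2l1 values was not tested. The FOXO genes are named after their values were seen. Foxo3 was higher in mouse A, where Bcl2l11 was lowest, by 0.20 (SE 0.043, adjusted p = 0.0151), and Foxo1 did not pass between mice (adjusted p = 0.393). The part of the FOXO genes in the Bcl2l11 values was not tested either. Ier3, an early response gene, was higher in mouse C by 0.17 (SE 0.031, adjusted p = 0.0225). Stat3 was lower in mouse D by -0.17 (SE 0.029, adjusted p = 0.0162).

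For Pmaip1 and Bcl2l11, which had the smallest p between mice, the genes most alike over the 8 arrays were found by the root mean square of the difference between centred log2 values. For Pmaip1 these were Gramd3 (0.049), Ncf1 (0.053), which encodes a subunit of the phagocyte oxidase, and Mndal (0.061), an interferon-inducible gene. For Bcl2l11 1456005_a_at they were Wtap (0.029), which encodes a subunit of the RNA methylation complex, Ltb (0.033), which encodes lymphotoxin beta, and Yipf2 (0.034). All 6 had their lowest mean in mouse A, which follows from their choice by likeness and is not a separate result.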

How the data were processed

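The deposited table gives each probe set a log2 value on each array, between 3.60 and 15.24. No header states the scale, which the range shows; the sources used here do not give how probes were summarised and normalised. At any rank the arrays differed by at most 0.167, so the authors' values would not show a shift common to the whole transcriptome. The table held 0 columns of other samples. Of 22690 probe sets 64 controls were left out. Of the other 22626, 20380 had 1 gene symbol in the platform annotation, which can be old, 691 several and 1555 none. No filter was set, and 3 of 25 members had a mean under the 40th percentile (6.87).

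Linear models were fitted in R 4.3.3 by lmFit and eBayes, with a variance trend, of limma 3.58.1. Tests were two-sided and adjusted by Benjamini-Hochberg over 22626 probe sets with a threshold of 0.05. Targets were compared with the mouse as a fixed block, mice by a moderated F test and each against the other three, with the target as covariate. The pairing comes from the titles and the series design. Deviations of a mouse's arrays from their group means correlated at 0.69, 0.091, 0.48 and 0.44 in mice A to D. The number of arrays limits the precision. The steps were tested on simulated data.

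Members and gene lists were chosen with earlier results of these data known. Every member probe set was named. From each pathway list the 4 genes with the smallest p between mice and the 2 with the smallest between targets were named, each gene by its probe set with the highest mean. From the marker lists the defining genes were named, with the B cell markers and Foxo1 and Foxo3 added after their values were seen, and the 3 genes most alike were given for the 2 members with the smallest p. Alternatives were no block or a random block for the mouse, quantile normalisation, median centring, a filter at the 40th percentile, 1 probe set per gene, eBayes with no trend, robust variances, array weights and leaving out each mouse.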

Additional observations from a re-analysis of the deposited data

Results flagged for a closer look

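Within a group of 4 arrays, an array was marked where its gap to the nearest other, as a share of the range, was above Dixon's 95% critical value. This held in 5 of the 50 groups of member probe sets, where chance marks about 1 in 20, or 2.5 groups. Bcl2 in mouse C was the lowest array with PD-L1-overexpressing targets, with a share of 0.853 (10.87 against 11.08 for the nearest). Bcl2l11 1435448_at in mouse A was lowest in both groups, with 0.954 with PD-L1-overexpressing targets (8.91 against 9.32) and 0.853 with PD-L1-depleted targets (8.93 against 9.23). Bcl2l11 1456006_at in mouse C was lowest with PD-L1-depleted targets, with 0.888 (6.91 against 7.15). Bid 1417045_at in mouse C was lowest with PD-L1-overexpressing targets, with 0.902 (8.13 against 8.53).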

How the results depend on the processing

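Between targets, 0 of 25 members passed in every alternative run, and the count over all probe sets was 0 in each except without mouse B, so leaving out 1 mouse gave 0 to 360. Without the replicate block, and with the mouse as a random replicate block, 0 probe sets passed and all 25 member differences kept their direction. Small differences between targets, none called, changed sign as follows: Bcl2l1 1426050_at to 0.0194 with quantile normalisation and 0.0108 with array weights, Bcl2l1 1426191_a_at to 0.00434 with array weights, Mcl1 1416881_at to 0.00785 with median centring, Mcl1 1437527_x_at to 0.00483 with median centring and 0.0106 with array weights, and Bbc3 to 0.0145 with array weights. Leaving out each mouse, the difference ranged from -0.068 to 0.0467 for Bbc3 1423315_at, -0.148 to 0.0080 for Bcl2l1 1420887_a_at, -0.0899 to 0.0446 for Bcl2l1 1426050_at, -0.104 to 0.0307 for Bcl2l1 1426191_a_at, -0.0325 to 0.0688 for Bcl2l11 1426334_a_at, -0.0827 to 0.0097 for Bcl2l11 1456006_at, -0.0086 to 0.0726 for Bid 1417045_at, -0.0616 to 0.014 for Mcl1 1416880_at, -0.0052 to 0.0043 for Mcl1 1416881_at, -0.0265 to 0.014 for Mcl1 1437527_x_at, -0.0096 to 0.0262 for Mcl1 1456243_x_at and -0.0076 to 0.0607 for Pmaip1 1418203_at. Between mice, 985 probe sets (4.35%) and 4 members (Pmaip1 and 3 of Bcl2l11) passed without a variance trend. With 1 probe set per gene and the filter, 7 of 9 members passed, against 2347 of 8003 genes in all (29.3%). Leaving out 1 mouse gave 500 to 5396 probe sets (2.21% to 23.8%) and 1 to 15 members. Without a trend, mice A, B, C and D stood apart in 1888, 224, 185 and 134 probe sets, and with array weights mice B and D in 420 and 1636. Those counts were 3323, 818, 710 and 752 as reported. The cause was not tested. No difference of a mouse that was called changed direction in any alternative; 142 of its values kept their side of the threshold and 40 missed it. Bak1 1418991_at passed with median centring, the filter, 1 probe set per gene and array weights (limma adjusted p = 0.0423, 0.0452, 0.0376 and 0.0366). The 3 members with means under 6.87 had the lowest signal, and 2 arrays per mouse limit how well the spread within an animal is known.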
